A study of Mus musculus with 18 samples.

Results

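The cytosolic ribosomal protein genes were examined in C2C12 myotubes, a mouse skeletal muscle cell line in which myoblasts fuse after serum withdrawal. Members were the protein-coding genes whose symbols follow the Rpl, Rps, Rplp or Rpsa pattern, without the Rps6k kinases, and whose mean count over 18 libraries reached 50. The rule gave 79 of the 55414 genes in the count table, of which 32 encode proteins of the small (40S) subunit, 44 encode proteins of the large (60S) subunit and 3 encode the P stalk. Of 84 protein-coding genes with such symbols, 5 fell below the minimum, the highest of them Rpl24 with a mean of 13.3 read pairs, while the lowest member, Rps10, had 103 read pairs. All 79 members also passed the filter on low counts used for testing.

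Confluent myoblasts had been transfected with pooled siRNAs against no target (siNTC), against Erk3 or against Mk5, and had been differentiated for 6 days. Myotubes then received 0.5 mM palmitic acid bound to bovine serum albumin (PA), or the albumin alone (BSA), for 16 h in serum-free medium. The 6 groups, siNTC BSA, siErk3 BSA, siMk5 BSA, siNTC PA, siErk3 PA and siMk5 PA, held 3 poly(A)-selected libraries each, so every control also carried a transfection. All libraries came from 1 cell line, and because the labels do not say whether the libraries of a group were separate cultures, p-values below measure only the spread between these libraries.

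Each ribosomal protein is present in a single copy in most ribosomes, with the acidic P stalk proteins as an exception, so their genes are known to be regulated together. Their mRNAs begin with a run of pyrimidines at the cap, the terminal oligopyrimidine (TOP) tract, through which Larp1 and the kinase complex mTORC1 control their translation and stability. In muscle, ribosome content sets translational capacity and changes with growth and atrophy. Some proteins also act outside the ribosome. Rpl5 and Rpl11, for example, bind Mdm2 together with the 5S rRNA and so link ribosome assembly to p53.

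Start windows are shown first because the TOP tract is the sequence feature for which these genes are known. RefSeq windows around annotated starts (GRCm38.p6) were matched by symbol for 59 of the 79 members. A run of at least 5 pyrimidines that opened with C exactly at the annotated start was found in 13 of the 59 members (22%) and in 347 of 11497 tested protein-coding genes (3.02%). Allowing the run to open within 5 bases of the annotated start gave 29 members (49.2%) against 23.7% of all those genes, so the count depended strongly on how exactly the start was placed. The windows below hold 30 bases before and 20 bases from the start, read 5′ to 3′ on the gene's strand and placed on GRCm39 by an exact match of their letters. Capitals mark the pyrimidine run at the start. The first lines are members with a run, chosen to span small changes and large ones with PA.
Rps6 (chr4:86775585-86775634, minus strand): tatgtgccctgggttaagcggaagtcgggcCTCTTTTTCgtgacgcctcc
Rps10 (chr17:27854199-27854248, minus strand): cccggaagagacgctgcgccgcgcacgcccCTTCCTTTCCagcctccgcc
Rps18 (chr17:34174620-34174669, minus strand): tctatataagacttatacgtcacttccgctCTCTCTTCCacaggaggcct
Rps21 (chr2:179899142-179899191, plus strand): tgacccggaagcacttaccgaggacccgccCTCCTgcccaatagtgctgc
Rps27 (chr3:90120936-90120985, minus strand): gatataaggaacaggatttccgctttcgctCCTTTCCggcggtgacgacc
Rpl28 (chr7:4795934-4795983, plus strand): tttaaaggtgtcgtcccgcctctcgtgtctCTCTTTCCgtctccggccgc
Rpl35 (chr2:38895124-38895173, minus strand): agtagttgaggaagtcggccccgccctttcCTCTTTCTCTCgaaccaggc
Rpl38 (chr11:114559376-114559425, plus strand): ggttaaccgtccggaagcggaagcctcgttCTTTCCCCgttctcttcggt
Rplp2 (chr7:141027534-141027583, plus strand): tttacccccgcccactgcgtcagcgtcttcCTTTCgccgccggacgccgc
The next lines are the 3 paralogs among the members and Rpl12, none with such a run at its annotated start. All but Rpl7l1 had a run that opened within 5 bases of it, which is not marked.
Rpl22l1 (chr3:28859627-28859676, plus strand): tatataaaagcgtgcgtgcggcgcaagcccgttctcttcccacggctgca
Rps27l (chr9:66853338-66853387, plus strand): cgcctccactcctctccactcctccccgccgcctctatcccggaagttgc
Rpl7l1 (chr17:47093563-47093612, minus strand): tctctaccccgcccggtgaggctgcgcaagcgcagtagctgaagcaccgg
Rpl12 (chr2:32851694-32851743, plus strand): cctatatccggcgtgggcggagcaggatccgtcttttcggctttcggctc

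Across the windows from 250 bases before to 50 after the start, searched on both strands, the ETS core CCGGAAG was present in 25 of the 59 members (42.4%) and in 17.8% of all those genes. The YY1 core AAGATGGC was present in 6 members (10.2%) against 4.69%. The Sp1 box GGGCGG (64.4% of members, 65.1% of all), the E-box CACGTG (10.2% and 10.9%) and the TATA sequence TATAAA (11.9% and 9.96%) were present at similar shares. These are matches of letters, counted without a test.

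Libraries held 13041979 to 28496727 counted read pairs, siNTC BSA replicate 1 being the shallowest. Levels are given as CPM (counts per 1e6 pairs) after scaling by trimmed mean of M-values (TMM). Mapk6, which encodes Erk3, was lower in siErk3 than in siNTC by 1.21 on the log2 scale in BSA and by 0.95 in PA (edgeR adjusted p = 1.77e-14 and 1.21e-12). Mapkapk5, which encodes Mk5, lay near 2 CPM. Its log2 fold change in siMk5 was -0.61 in BSA and -0.49 in PA, which did not pass the test (edgeR adjusted p = 0.469 in each medium). The myotube markers Myog, Ckm, Acta1, Myh3, Tnnc2, Mymk and Des were present in all libraries, and the adipocyte markers Plin1 and Cidec and the macrophage marker Adgre1 were at 0 in all of them. In unscaled CPM, the 3 adipocyte markers summed to at most 0.045, and the 3 macrophage markers to 0.553 to 1.78, nearly all of it Cd68. The 18S rRNA gene Rn18s-rs5 took 1.497% to 12.9% of read pairs.

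The ribosomal protein genes together took 2.79% to 3.303% of all counted pairs in the 9 BSA libraries and 3.29% to 3.67% in the 9 PA libraries. Within each siRNA, the BSA and PA libraries did not overlap in this share. It was 3.01% to 3.06% in siNTC BSA and 3.29% to 3.41% in siNTC PA. With siErk3 it was 3.20% to 3.303% and 3.47% to 3.67%, and with siMk5 it was 2.79% to 2.98% and 3.33% to 3.59%. All counted pairs include those of the 18S rRNA gene, whose share differed between groups. With the 18S pairs left out, it was 3.09% to 3.265% in siNTC BSA and 3.48% to 3.645% in siNTC PA. With siErk3 it was then 3.29% to 3.36% and 3.72% to 3.85%. With siMk5 it was 3.12% to 3.255% and 3.57% to 3.67%, so siMk5 BSA lay within the range of siNTC BSA. In siNTC BSA, a median member had 335 CPM. Per kilobase of annotated exon, the highest levels in that group were those of Rplp1, a P stalk protein (1206 CPM per kb), of its scaffold Rplp0 (699 CPM per kb) and of Rps15 (698 CPM per kb). Rplp0 and Rps15 lay side by side in this order. The lowest were Rpl7l1 (25.03 CPM per kb), Rpl13a (10.2 CPM per kb) and Rps10 (1.45 CPM per kb), against a median of 181 CPM per kb.

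The levels of Rpl13a and Rps10 leave out part of each gene, since pairs that overlapped exons of more than 1 gene were left unassigned. Of the exonic bases of Rpl13a, 35.4% were shared with other genes on its strand (Gm45713 among them), and 20.6% of those of Rps10 were shared with Gm49804. In all, 26 members shared exonic bases with another gene on their strand, mostly small nucleolar RNAs. Named pseudogenes were annotated for 62 members, and for Rps2 they held more pairs (mean 9264) than the gene itself (mean 8242).

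Palmitic acid was accompanied by an increase across the ribosomal protein genes, small for most of them and shared in direction but not in size. With siNTC, the log2 fold change of PA over BSA was above 0 for 79 of 79 members, with a median of 0.24 (a fold of 1.18) and a range of 0.02 to 0.91, beside a median of -0.03 over all 21772 genes tested. Of the 79, 75 were higher at an edgeR adjusted p below 0.05, while 23.9% of all genes tested and 32.1% of the protein-coding ones were. The median SE was 0.05 over the members and 0.16 over all genes tested, so equal changes passed more readily among members. The direction of the least changed members depended on the scaling, as 76 of 79 lay above 0 with library totals alone or with upper quartile scaling, which moved the median of all genes to -0.12. Measured from the median of all genes, the members' median was 0.26 with TMM, 0.26 with library totals and 0.26 with upper quartile scaling.

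The same comparison gave nearly the same values with siErk3 and with siMk5, which share no libraries with it or with each other. With siErk3 the median was 0.24 (range 0.03 to 0.87), and 75 members were higher at an adjusted p below 0.05 against 24.1% of all genes. With siMk5 the median was 0.24 (range 0.01 to 0.95), and 74 members were higher against 23.4% of all genes. Of the protein-coding genes tested, 31.9% were higher with siErk3 and 31.3% with siMk5. Library by library, PA and BSA did not overlap for 76 members with siNTC, 77 with siErk3 and 75 with siMk5, all higher in PA, where 26.9%, 27.5% and 27.3% of all genes had PA libraries wholly above BSA ones. Of 14994 protein-coding genes tested, 5220, 5203 and 5222 were separated that way. In all 3 comparisons at once, 72 members were higher by the adjusted p and 73 did not overlap, against 19.7% and 20.4% of all genes. For 1 gene, the exact permutation of 3 libraries against 3 has a smallest p of 0.1.

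**Figure D1:**
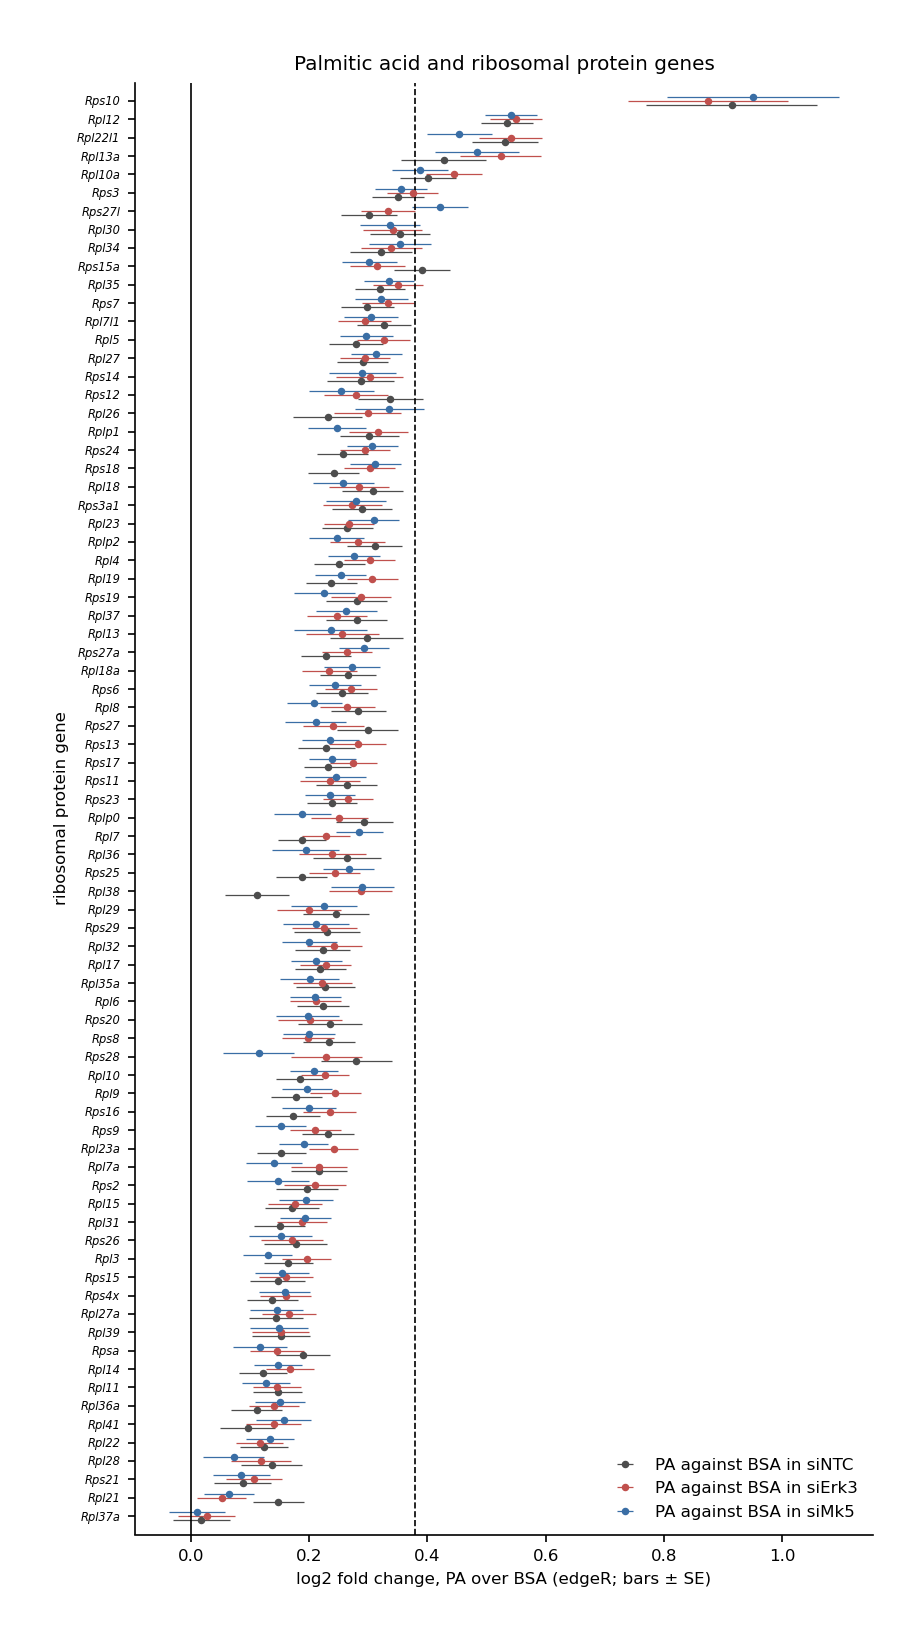
Log2 fold change of PA over BSA (horizontal axis, edgeR, bars ± SE) for 78 of the 79 ribosomal protein genes (vertical axis, ordered by the mean of 3 comparisons) with siNTC, siErk3 and siMk5 in separate colours. The dashed line marks a 1.3-fold increase, which most members do not reach although all points lie above 0.

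The increase was similar in both subunits. With siNTC, the median log2 fold change was 0.24 over the 32 genes of the 40S subunit, 0.23 over the 44 genes of the 60S subunit and 0.30 over the 3 genes of the P stalk. With siErk3 these medians were 0.26, 0.24 and 0.28, and with siMk5 they were 0.24, 0.21 and 0.25. The ordering of members by fold change recurred between the 3 comparisons. Across the 79 genes, which share libraries within a comparison and are not independent, Pearson's r was 0.93 between siNTC and siErk3, 0.90 between siNTC and siMk5 and 0.96 between siErk3 and siMk5 (Spearman's rho 0.85, 0.78 and 0.91). Members with a pyrimidine run at the annotated start had medians of 0.24, 0.27 and 0.24 with siNTC, siErk3 and siMk5, and the 46 matched members without one had 0.24, 0.25 and 0.24. Some of these 46 had a run that opened within 5 bases of the start, as 29 of the 59 matched members did. The split therefore does not separate genes with a TOP tract from genes without one.

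**Figure D2:**
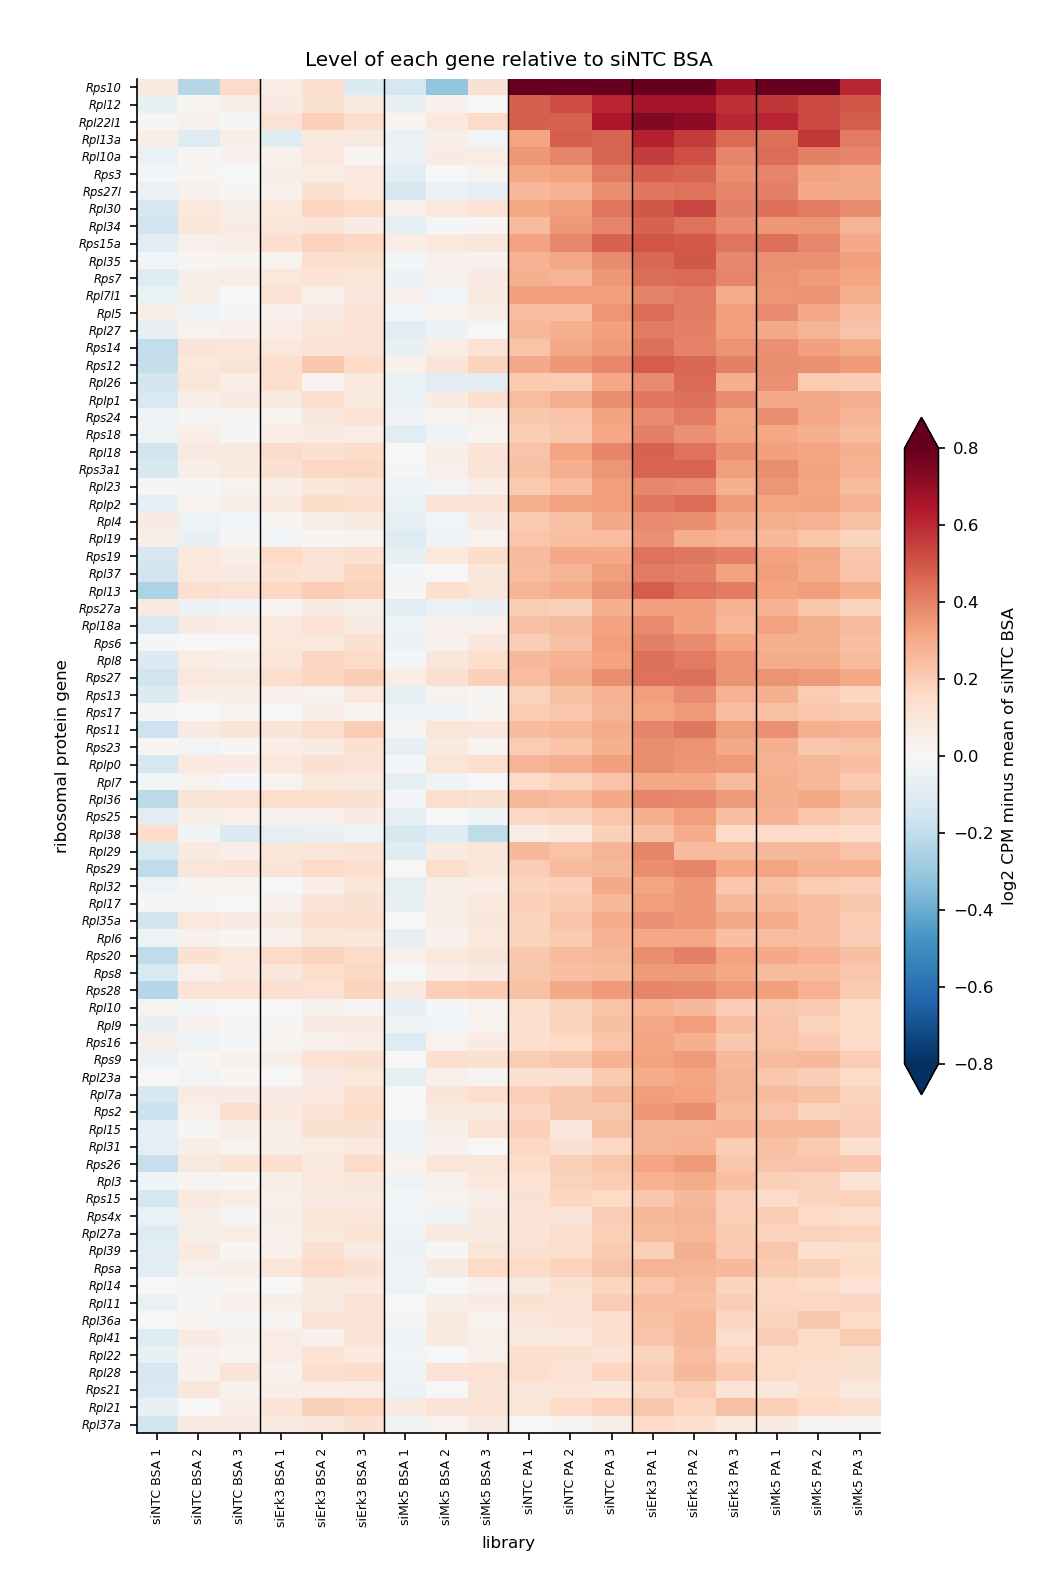
Log2 CPM of 78 of the 79 ribosomal protein genes (rows, ordered as in the plot of fold changes from the largest to the smallest) in each of the 18 libraries (columns), minus the mean of siNTC BSA. The 9 PA columns are redder than the 9 BSA columns in nearly all rows, and libraries of 1 group also differ in shade from each other.

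Few members changed by more than 1.3-fold. At an adjusted p below 0.05 and a fold above 1.3, 6 of 79 members were higher with siNTC, 6 with siErk3 and 6 with siMk5, where 15.5%, 15.8% and 15.1% of all genes were. None was lower, where 15.1%, 16.3% and 14.6% of all genes were lower by both criteria. In the 3 comparisons 5 members, Rpl12, Rpl22l1, Rpl10a, Rpl13a and Rps10, passed each time, as 12% of all genes did in the higher direction, and 8 passed at least once, among them Rps15a (siNTC) and Rps27l (siMk5). Several lay close to the threshold of 0.38 on the log2 scale.

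Rpl12, a 60S protein at the base of the stalk, had the strongest statistical support. In siNTC BSA its level was 517, 545 and 557 CPM, and in siNTC PA it was 751, 773 and 821 CPM. With siErk3 the BSA libraries held 564, 587 and 567 CPM and the PA libraries 854, 851 and 810 CPM. With siMk5 they held 517, 553 and 540 CPM in BSA and 802, 780 and 760 CPM in PA. Every PA library lay above every BSA library across all 18. The log2 fold change was 0.53 ± 0.04 (SE, edgeR adjusted p = 9.62e-12) with siNTC, 0.55 ± 0.04 (adjusted p = 4.11e-12) with siErk3 and 0.54 ± 0.04 (adjusted p = 7.52e-12) with siMk5.

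Rpl10a, a 60S protein of the L1 stalk, rose from 307, 322 and 326 CPM in siNTC BSA to 404, 417 and 440 CPM in siNTC PA. Its log2 fold changes were 0.40 ± 0.05, 0.45 ± 0.05 and 0.39 ± 0.05 (SE) with siNTC, siErk3 and siMk5 (edgeR adjusted p = 1.73e-08, 1.73e-09 and 3.37e-08). The BSA and PA libraries did not overlap with any of the 3 siRNAs. The value with siMk5, 0.388, lay just above the fold threshold and fell below it with DESeq2 size factors (0.376).

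Rps10, a 40S protein near the mRNA entry, had the largest fold change and the lowest counts. It was read at 3.51, 2.83 and 3.69 CPM in siNTC BSA and at 6.12, 5.88 and 6.77 CPM in siNTC PA. With siErk3 it was at 3.47, 3.63 and 3.08 CPM in BSA and 7.10, 6.08 and 5.36 CPM in PA, and with siMk5 at 3.01, 2.67 and 3.61 CPM and 6.65, 6.15 and 5.06 CPM. All PA libraries lay above all BSA libraries. The log2 fold changes were 0.91 ± 0.14, 0.87 ± 0.14 and 0.95 ± 0.15 (SE, edgeR adjusted p = 3.16e-06, 2.07e-06 and 1.96e-06). With the 18S share as a covariate the value with siMk5 was 0.51 and no longer passed. Rpl13a, a 60S protein also known from the interferon-gamma-activated inhibitor of translation complex, had 0.43 ± 0.07, 0.52 ± 0.07 and 0.48 ± 0.07 (adjusted p = 8.15e-06, 1.05e-07 and 9.35e-07), and 0.34 with siMk5 under the same covariate, which did not pass. With siNTC, the call of Rpl13a fell below a threshold in 4 of the alternative settings. The values of Rps10 and Rpl13a rest on the part of each gene that no other gene overlaps, and how the shared part behaved was not tested.

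The 3 paralogs differ from their main genes in how evenly they followed them. Rpl22l1 encodes an alternative to the 60S protein Rpl22, and the main gene is known to restrain its paralog. Rpl22l1 was at 50.4, 52.0 and 50.2 CPM in siNTC BSA and at 70.7, 70.6 and 79.5 CPM in siNTC PA. Rpl22 itself was at 203, 217 and 215 CPM in BSA and 232, 231 and 229 CPM in PA. The log2 fold changes of Rpl22l1 were 0.53, 0.54 and 0.45 with siNTC, siErk3 and siMk5 (edgeR adjusted p = 1.56e-09, 4.12e-10 and 2.86e-08), and those of Rpl22 were 0.12, 0.12 and 0.13 (adjusted p = 0.0127, 0.0171 and 0.0072).

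The ratio of 2 genes within a library does not depend on library scaling. For Rpl22l1 over Rpl22 counts the log2 ratio was -2.06 ± 0.04 (SD, n = 3) in siNTC BSA and -1.65 ± 0.11 in siNTC PA, a rise of 0.41 (exact permutation p = 0.1, the smallest possible). The rise was 0.42 with siErk3 and 0.32 with siMk5, again without overlap. Put as a share, Rpl22l1 made up 18.96% to 20.6% of the pairs of both genes in the 9 BSA libraries and 23.4% to 26.2% in the 9 PA libraries.

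**Figure D3:**
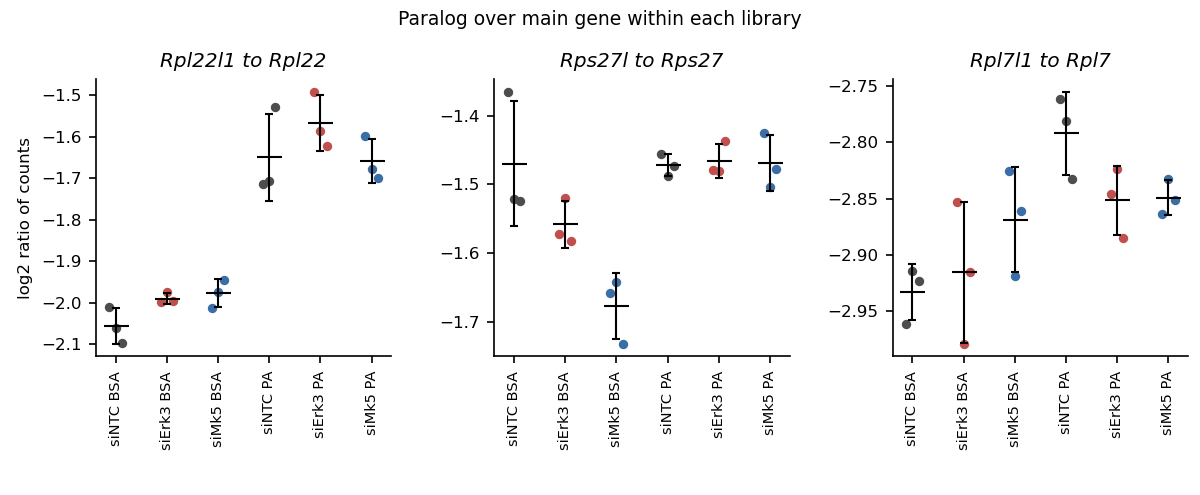
Log2 ratio of counts of each paralog over its main gene (vertical axes, each with its own range that does not start at 0) in the 6 groups, with 1 point per library and bars for mean ± SD (n = 3). The Rpl22l1 ratio is higher in all 9 PA libraries than in all 9 BSA libraries, while the other ratios overlap in some groups.

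Rps27l, a 40S paralog known as a p53 target, is set beside Rps27 in the same way. In BSA its level was 69.8, 74.1 and 73.4 CPM with siNTC and 66.2, 70.1 and 68.9 CPM with siMk5, and in PA it was 86.8, 87.8 and 93.5 CPM and 95.8, 89.3 and 89.4 CPM. Its log2 fold change with PA was 0.30, 0.33 and 0.42 with siNTC, siErk3 and siMk5 (edgeR adjusted p = 2.89e-06, 3.02e-07 and 6.74e-09), and that of Rps27 was 0.30, 0.24 and 0.21. The log2 ratio of Rps27l over Rps27 moved by -0.001, 0.09 and 0.21 in these comparisons, with overlap in the first (exact permutation p = 1, 0.1 and 0.1). The value with siNTC rested on siNTC BSA replicate 1, whose ratio was -1.37 against -1.52 in both other libraries of its group, and without it the change was 0.05 with no overlap. In BSA this ratio was lower with siMk5 than with siNTC, with a difference of -0.21 and no overlap (exact permutation p = 0.1), and the difference was -0.15 without that siNTC library. The interaction of siMk5 with PA for Rps27l was 0.12 ± 0.07 (SE, edgeR adjusted p = 0.698), so a difference in its PA response was not shown. Rpl7l1 had 0.33, 0.29 and 0.30 and its main gene Rpl7 had 0.19, 0.23 and 0.29. The main genes Rpl3 (0.17, 0.20 and 0.13), Rpl39 (0.15 in each), Rps4x (0.14, 0.16 and 0.16) and Rpl10 (0.18, 0.23 and 0.21) passed an adjusted p of 0.05 in each comparison, but their paralogs Rpl3l, known from striated muscle, Rpl39l, Rps4l and Rpl10l had mean counts of 2.61 or less and are not compared.

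Among proteins with roles outside the ribosome, the pair of the 5S particle rose by different amounts. Rpl5 went from 516, 489 and 493 CPM in siNTC BSA to 591, 588 and 637 CPM in siNTC PA, a log2 fold change of 0.28 ± 0.05 (SE, edgeR adjusted p = 4.52e-06). Rpl11 went from 345, 361 and 369 CPM to 390, 388 and 413 CPM, which gave 0.15 ± 0.04 (adjusted p = 0.00356). With siErk3 and siMk5 the values were 0.33 and 0.30 for Rpl5 and 0.15 and 0.13 for Rpl11. Rps6, the 40S protein phosphorylated by S6 kinases, went from 348, 351 and 351 CPM to 401, 411 and 442 CPM (0.26, 0.27 and 0.24 in the 3 comparisons). Rplp0, often used as a reference gene in quantitative PCR, went from 1048, 1221 and 1209 CPM to 1394, 1415 and 1455 CPM, and its log2 fold changes were 0.29, 0.25 and 0.19 (adjusted p = 6.00e-06, 5.07e-05 and 0.00161). Rplp1 (0.30, 0.32 and 0.25), Rplp2 (0.31, 0.28 and 0.25), Rps27a, a fusion with ubiquitin (0.23, 0.26 and 0.29), and the laminin receptor gene Rpsa (0.19, 0.15 and 0.12) all passed an adjusted p of 0.05 in each comparison.

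**Figure D4:**
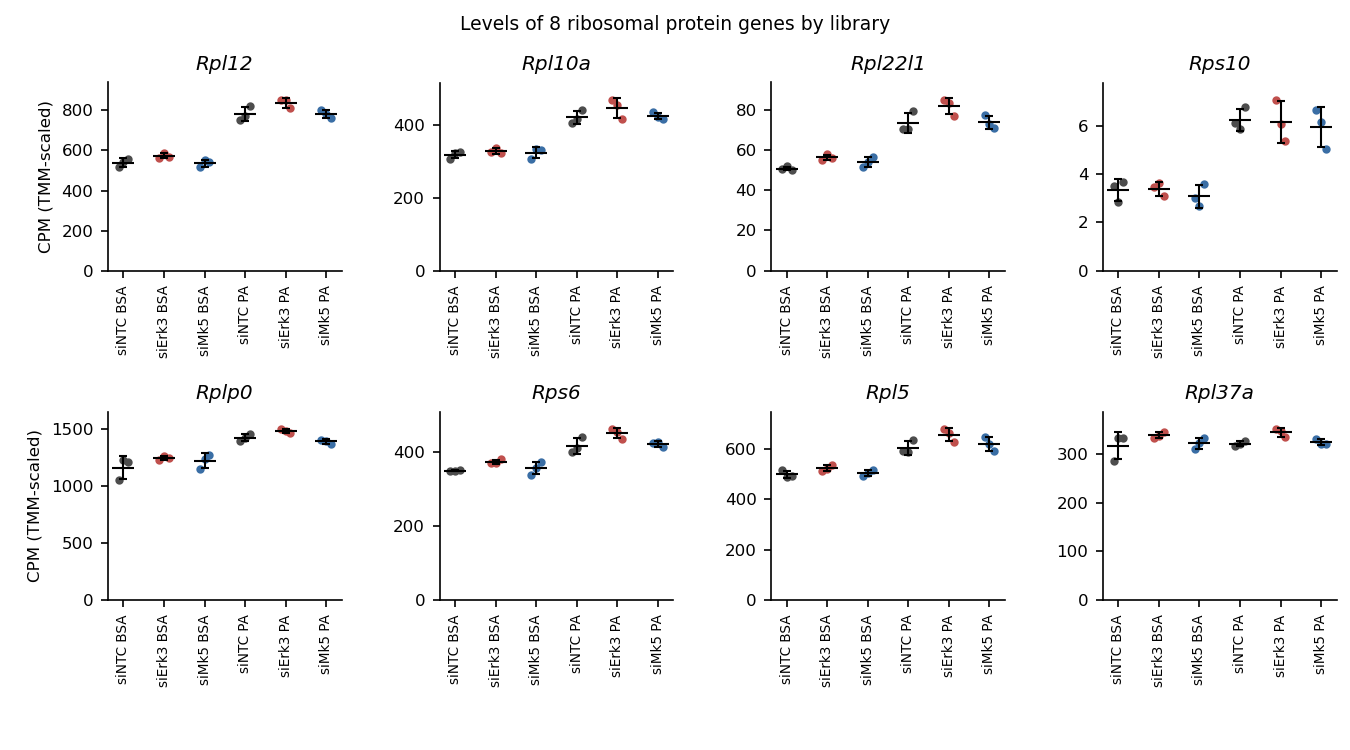
TMM-scaled CPM (vertical axes, from 0) of 8 ribosomal protein genes in the 6 groups, with 1 point per library and bars for mean ± SD (n = 3). Rpl12, Rpl10a, Rpl22l1 and Rps10 are separated between BSA and PA in every siRNA, whereas the groups of Rpl37a overlap.

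The smallest changes were those of Rpl37a, Rpl21, Rps21 and Rpl28, named here after their values were seen. Rpl37a was at 287, 334 and 334 CPM in siNTC BSA and at 318, 321 and 328 CPM in siNTC PA, so its groups overlapped. Its log2 fold change was 0.02, 0.03 and 0.01, it passed in no comparison, and its sign turned under several scalings and left-out libraries (-0.071 with siNTC without siNTC BSA replicate 1). Rps21 also passed in none (0.09, 0.11 and 0.09). Rpl21 had 0.15, 0.05 and 0.07 and passed with siNTC, and Rpl28, whose start window above opens with a run of 8 pyrimidines, likewise passed in 1 comparison. Over the 79 members, the mean fold change of the 3 comparisons was related weakly to exonic length (Pearson's r = 0.16, Spearman's rho = 0.17). Its relation to level in siNTC BSA was -0.56 by Pearson's r and -0.14 by Spearman's rho. That level also enters the fold change with siNTC, so a negative relation is partly built in. Rps10, the member with the lowest level, had the largest mean fold change (0.91).

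Other signals moved with PA as well. The 5 markers of proliferating or undifferentiated myoblasts (Pax7, Myf5, Mki67, Top2a and Ccnb1) summed to 815 to 902 CPM in the BSA libraries and to 323 to 428 CPM in the PA libraries, in unscaled CPM. The 7 myotube markers, also in unscaled CPM, summed to 9579 to 9797 CPM in siNTC BSA and 8215 to 8282 CPM in siNTC PA. With siErk3 the sums were 10560 to 11410 CPM in BSA and 8989 to 9673 CPM in PA. With siMk5 they were 8611 to 9304 CPM and 8683 to 8922 CPM, which overlapped. In each siRNA the mean of Des was higher in PA, while those of the others were lower. TMM factors, which these sums leave out, were 1.02 to 1.09 in siNTC BSA and 0.96 to 0.98 in siNTC PA. The part of these shifts in the ribosomal protein values was not tested, and in bulk RNA fewer cells of a type cannot be told apart from less RNA per cell. The 18S share was 2.56% to 7.17% in siNTC BSA and 5.32% to 6.43% in siNTC PA, was higher in PA with siErk3 (1.497% to 2.96% in BSA, 3.74% to 6.77% in PA) and lower in PA with siMk5 (8.39% to 12.9% in BSA, 1.71% to 6.69% in PA). With that share as a covariate the medians of the members were 0.24, 0.25 and 0.24.

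The members tended to deviate together within groups. In each of the 6 groups, 1 library held the lowest level of 64 to 74 of the 79 members, siNTC BSA replicate 1 (64 members) being 1 of these. Without that library the median with siNTC was 0.18, 78 of 79 members lay above 0 and 63 passed an adjusted p of 0.05. Without siNTC PA replicate 3 the median was 0.20 and 60 members passed. Once group means were removed, the median correlation between pairs of members across the 18 libraries was 0.69, with 96% of pairs above 0, against 0.93 with group means kept, a description of values that share library scaling.

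Silencing of Erk3 was accompanied by values slightly above those of siNTC, none of which passed on its own. In BSA, 78 of 79 members had a log2 fold change of siErk3 over siNTC above 0, with a median of 0.085 (range -0.06 to 0.17) beside 0.02 over all genes. In PA, 78 of 79 did, with a median of 0.10 (range -0.01 to 0.16) beside -0.004 over all genes. No member passed both criteria in either medium, where 0.785% and 0.556% of all genes did in either direction, and none passed an edgeR adjusted p of 0.05. At an unadjusted p below 0.05, 31 members were higher in BSA and 45 in PA, where 7.14% and 4.01% of all genes were. Of 14994 protein-coding genes tested, 1417 were in BSA and 716 in PA. DESeq2 gave 1 member with an adjusted p below 0.05 in each medium. Groups did not overlap for 40 members in BSA and 43 in PA, higher with siErk3, where 11.5% and 6.30% of all genes were separated that way. Members deviate together within groups, so these are not counts of independent genes. The mean log2 CPM of the members had a pooled SD of 0.045 between libraries of a group, and of 0.067 in siNTC BSA.

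The members nearest to the threshold in BSA were Rpl21 (0.15 ± 0.04 SE, edgeR adjusted p = 0.0714), Rps15a (0.16 ± 0.05, adjusted p = 0.126) and Rps27 (0.16 ± 0.05, adjusted p = 0.167). Rpl21 was at 253, 264 and 274 CPM in siNTC BSA and at 283, 301 and 297 CPM in siErk3 BSA, without overlap. The largest value in BSA was that of Rpl13 (0.17 ± 0.06, adjusted p = 0.254). In PA they were Rpl23a (0.14 ± 0.04, edgeR adjusted p = 0.129), Rpl35 (0.13 ± 0.04, adjusted p = 0.254) and Rpl22l1 (0.16 ± 0.05, adjusted p = 0.254). Rpl23a was at 564, 565 and 597 CPM in siNTC PA and at 636, 642 and 624 CPM in siErk3 PA. The 95% interval of the difference lay within a 1.3-fold change either way for 79 of 79 members in both media. In BSA the shallow siNTC library weighed on the value, since without it the median was 0.054 and 76 members lay above 0. The 18S share was also lower with siErk3 in BSA (1.497% to 2.96%) than with siNTC (2.56% to 7.17%), and with it as a covariate the median was 0.093 and 72 members lay above 0. In unscaled CPM, the 7 myotube markers also summed higher with siErk3 than with siNTC without overlap in both media, at 10560 to 11410 CPM against 9579 to 9797 CPM in BSA and at 8989 to 9673 CPM against 8215 to 8282 CPM in PA. The sums were carried mostly by Myh3 (group means of 3349 against 2540 in BSA and 2677 against 2053 in PA) and Acta1 (3690 against 3322 and 3179 against 2936). Ckm and Des were slightly higher in BSA, but Myog, Tnnc2 and Mymk were slightly lower there. In PA the means of all 7 were higher. The part of these markers in the ribosomal protein values was not tested.

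Silencing of Mk5 left smaller values. The median log2 fold change of siMk5 over siNTC was 0.02 in BSA (55 of 79 above 0) and 0.01 in PA (56 of 79 above 0), beside 0.01 and 0.002 over all genes. No member passed both criteria in edgeR, where 0.0643% and 0.547% of all genes did, and DESeq2 also gave 0. Unadjusted p-values were below 0.05 for 4 members in BSA and 0 in PA, where 6.89% and 6.79% of all genes were, so the members' counts did not exceed that background. The nearest in BSA were Rpl38 (-0.14 ± 0.05 SE, edgeR adjusted p = 0.596), Rps28 (0.15 ± 0.06, adjusted p = 0.640) and Rps27 (0.12 ± 0.05, adjusted p = 0.666), and in PA they were Rpl41, Rpl36a and Rpl7 (0.09, 0.07 and 0.06). The 95% interval lay within 1.3-fold for 78 members in BSA, all but 1, and for 79 in PA. The sign of the median in BSA depended on scaling and on single libraries. It was -0.091 with library totals alone, -0.023 with 24 members above 0 without siNTC BSA replicate 1, and 0.052 with 67 above 0 without siMk5 BSA replicate 1. The 18S share was 8.39% to 12.9% in siMk5 BSA against 2.56% to 7.17% in siNTC BSA. In unscaled CPM, which a larger 18S share lowers, the myotube markers summed to 8611 to 9304 CPM against 9579 to 9797 CPM. The TMM factors, which these sums leave out, were 0.94 to 0.98 in siMk5 BSA and 1.02 to 1.09 in siNTC BSA. Whether the sums differ after scaling is therefore not shown. The part of the 18S share or of the markers in the median was not tested.

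The test of whether silencing altered the response to PA found no member. No interaction passed both criteria, where 0.0367% of all genes did for siErk3 and 0.211% for siMk5. Unadjusted p-values were below 0.05 for 1 member with siErk3 and 1 with siMk5, in each case Rpl38, a 60S protein, where 6.10% and 7.43% of all genes were, and DESeq2 gave 0 by both criteria. These counts lie below the background, and Rpl38 is given only as the member nearest to the threshold. Rpl38 was at 140, 124 and 117 CPM in siNTC BSA and 132, 134 and 144 CPM in siNTC PA, so these overlapped. With siErk3 it was at 120, 121 and 123 CPM in BSA and 149, 156 and 141 CPM in PA. The interaction of Rpl38 was 0.18 ± 0.08 for both siRNAs (SE, edgeR adjusted p = 0.739 for siErk3 and 0.608 for siMk5). Over the members, the median interaction was 0.01 for siErk3 and -0.004 for siMk5, with an SE of 0.07 for a typical member. Leaving out 1 library at a time, these medians ran from -0.015 to 0.049 and from -0.035 to 0.038, so neither had a settled sign.

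The other parts of the translation machinery did not all move by the amount seen for ribosomal proteins. As above, 15.5% of all genes rose and 15.1% fell with siNTC by both criteria. The factors that build the ribosome had the largest median of the 10 lists examined. Of 56 ribosome assembly factors, 49 rose with PA in siNTC by both criteria and none fell, with a median log2 fold change of 0.86 (0.81 with siErk3 and 0.79 with siMk5, where 50 and 48 rose). Rrs1, which brings Rpl5 and Rpl11 into the large subunit precursor, rose by 1.45 ± 0.07 (SE, edgeR adjusted p = 1.36e-17), from 29.1, 29.1 and 26.5 CPM to 73.3, 76.2 and 81.7 CPM. Mybbp1a (1.08) and Utp20 (1.12), both nucleolar processing factors, rose as well. Of 15 genes of RNA polymerase I and its factors, which transcribe the large rRNA precursor, 8 rose and none fell (median 0.38), among them Taf1d (1.26), Polr1b (0.62) and Polr1e (0.76). Of 14 chaperones and importers of ribosomal proteins, 8 rose (median 0.44), among them Grwd1, a chaperone of Rpl3 (0.95), and the importins Ipo7 (0.67) and Ipo5 (0.55). With siErk3 and siMk5, 7 and 6 genes of the polymerase I list rose and 7 and 7 of the chaperones, and none fell.

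**Figure D5:**
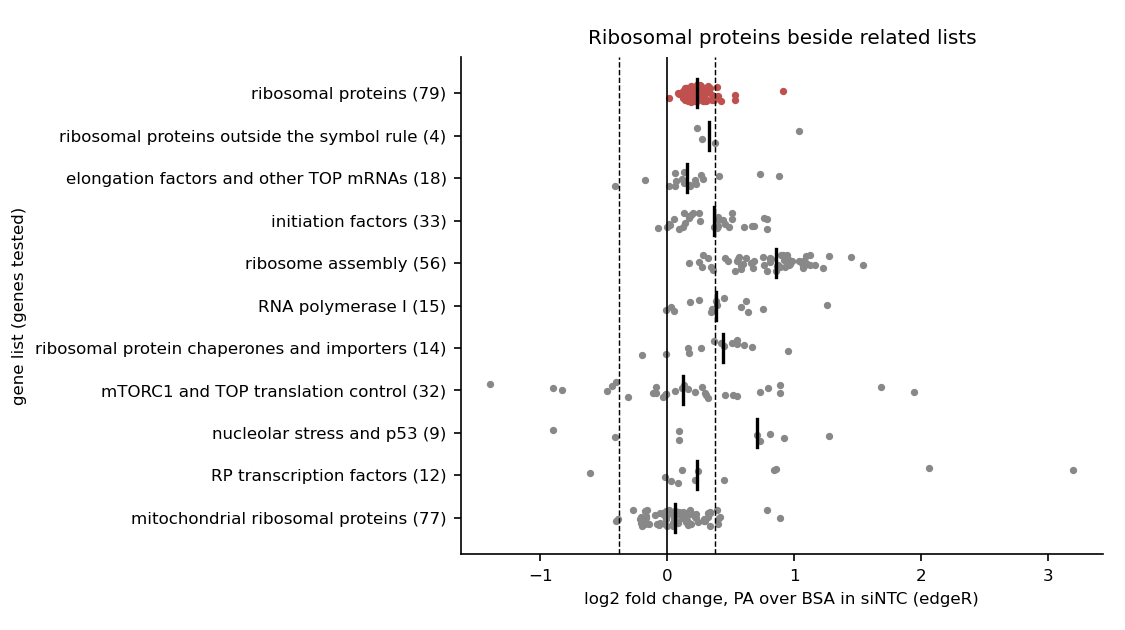
Log2 fold change of PA over BSA with siNTC (horizontal axis, edgeR) for each gene of the ribosomal proteins and of 10 related lists (vertical axis, with the number of genes tested). Points are genes, thick bars are medians and dashed lines mark 1.3-fold either way. The 79 ribosomal proteins sit in a narrow band at a median of 0.24, below the ribosome assembly factors at 0.86.

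Of 33 initiation factors, 16 rose with siNTC and none fell (median 0.37), and 11 and 10 rose with siErk3 and siMk5. Eif1 (0.79), Eif5 (0.79), both of which act in start codon selection, and Eif3c (0.67) had the smallest p-values. Of 18 elongation factors and other TOP mRNAs, 3 rose (16.7%) and 1 fell (5.56%) with siNTC (median 0.16), so the share that rose was near that of all genes. Npm1, a nucleolar chaperone, rose by 0.73, Eef1e1 by 0.88 and Pabpc1, the poly(A)-binding protein, by 0.41, and Vim was lower with -0.41, while with siErk3 and with siMk5 2 rose and 1 fell. Eef1a1, whose mRNA has a TOP tract, had 0.18, 0.17 and 0.11 in the 3 comparisons (edgeR adjusted p = 0.00163, 0.00234 and 0.0444), and Eef1a2 was under 1 CPM. Of 4 ribosomal proteins outside the symbol rule, Rack1 had 0.38, 0.37 and 0.33 and Fau 0.23, 0.25 and 0.15, both past an adjusted p of 0.05, and Rpl36al, at about 1 CPM, passed both criteria (1.04, 1.45 and 1.27).

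Of 32 genes of mTORC1 and TOP translation control, 9 rose (28.1%) and 6 fell (18.8%) with siNTC (median 0.12), the latter near the 15.1% of all genes. Sesn2, an amino acid sensor that restrains mTORC1, rose by 1.95, Eif4ebp1, the cap-binding repressor, by 1.68, and Larp1, which binds TOP mRNAs, by 0.73, while Sesn1 was lower with -0.90. Larp1 was at 203, 212 and 223 CPM in siNTC BSA and at 340, 361 and 362 CPM in siNTC PA. Mtor itself had -0.01 ± 0.05 (SE, edgeR adjusted p = 0.914). Of 12 transcription factors linked to ribosomal protein promoters, 4 rose (33.3%) and 1 fell. Myc rose by 2.06 ± 0.10 (SE, edgeR adjusted p = 9.05e-17), from 32.3, 33.6 and 35.3 CPM to 122, 138 and 165 CPM, and Max (0.84) and Tbpl1 (0.86) rose too. Of 9 genes of nucleolar stress and p53, 5 rose and 2 fell, with Gnl3 (1.27) and Bax (0.92) higher and Sesn1 lower. With siErk3 and siMk5, 9 and 9 genes rose and 6 and 5 fell on the mTORC1 list, 3 and 4 rose and 1 and 1 fell among the transcription factors, and 5 and 5 rose and 1 and 1 fell on the p53 list.

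Mitochondrial ribosomal proteins, encoded by separate nuclear genes, moved in both directions. Of 77 such genes, 6 rose (7.79%) and 2 fell by both criteria with siNTC (median 0.07), both smaller shares than over all genes. Of the 77, 50 lay above 0 and 25 (32.5%) were higher at an adjusted p of 0.05, against 23.9% of all genes. Among all protein-coding genes tested 32.1% were higher, so the share on this list was near theirs. With siErk3 and siMk5 the medians were 0.08 and 0.09, with 6 and 5 higher and 1 lower in each. Mrps18b (0.89), Mrps6 (0.78) and Mrpl20 (0.40) were among those that rose. In the silencing comparisons and interactions, no gene of these lists passed both criteria except Rragd, a Rag GTPase of the mTORC1 pathway, which was higher with siErk3 in BSA by 0.53 (edgeR adjusted p = 0.0062).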

How the data were processed

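RNA of C2C12 myotubes was sequenced as stranded, poly(A)-selected pairs (18 libraries, 3 per group). Per the study's methods the authors trimmed, aligned with STAR and deposited raw counts per gene from featureCounts (reverse strand, primary alignments, mapping quality at least 3, Ensembl 105 on GRCm39 per the file headers; the labels name mm10). Multi-mapping pairs could enter, and pairs on exons of several genes were dropped. Symbols came from GENCODE M39. A table of log2 values was not used.

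The 21772 genes whose counts summed to 10 or more were fitted with edgeR 4.0.16 (quasi-likelihood, TMM, 1 term per group), with Benjamini-Hochberg adjustment over all genes. Calls needed FDR below 0.05 and a fold above 1.3. On simulated data for PA in siNTC, 100% of changes of log2 1 and 87% of log2 0.5 were recovered. DESeq2 1.42.0, other scalings, filters, covariates and left-out libraries were alternatives. Libraries of a group differed by more than counting noise (chi-square per gene at least 2.76). Named genes were paralog pairs, members of known extra-ribosomal or stalk roles, the highest and lowest per length, and per comparison up to 5 called members with the smallest p (3 where none) and the 2 largest changes, and up to 3 called genes per list. Members and lists were chosen with earlier results of these data known. Values of some genes are not reported here.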

Additional observations from a re-analysis of the deposited data

How the results depend on the processing

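Alternatives covered normalization, filters, tool, covariates, criteria and left-out libraries. The least changed members Rpl37a, Rpl21, Rps21 and Rpl28 changed sign with PA in some settings. With siNTC, 76 of 79 members lay above 0 under library totals and under upper quartile scaling. The members listed here are therefore not all of those that turned. With siNTC, siErk3 and siMk5, Rpl37a had -0.079, -0.046 and -0.065 with upper quartile scaling, and -0.083 and -0.080 with siNTC and siErk3 under library totals. It also had -0.0044 with filterByExpr and -0.0027 with pseudogene counts added (siNTC), and -0.0014 with DESeq2 size factors, -0.0013 with DESeq2 and -0.0065 with only the libraries compared (siMk5). Rpl21 had -0.054 (siErk3, library totals), -0.020 (siErk3, upper quartile) and -0.011 (siMk5, upper quartile), Rps21 had -0.013 and -0.0094 (siNTC, the same 2 scalings), and Rpl28 had -0.0031 (siMk5, upper quartile). Without single libraries Rpl37a ran from -0.071 to 0.038 with siNTC, from -0.0078 to 0.034 with siErk3 and from -0.017 to 0.035 with siMk5. In all, 37 calls of named members fell below a threshold, among them 9 of Rps15a with siNTC and 7 of Rpl10a with siMk5. With siNTC, siErk3 and siMk5, dropping the fold criterion gave 75, 75 and 74 members called with PA in place of 6, 6 and 6, and leaving out members that share exonic bases gave 3, 3 and 3. Library totals without a scaling factor gave 3 members with siNTC and 12 with siMk5, medians of 0.13, 0.14 and 0.29, a median of -0.091 for siMk5 in BSA, and for the interaction of siMk5 a median of 0.15 with 4 members past FDR. Upper quartile scaling gave 3 members with siNTC and 3 with siMk5, and medians of 0.14, 0.17 and 0.16. Relative to the median of all genes, the PA medians stayed between 0.25 and 0.26 under both scalings. Leaving out 1 library at a time, the median with siNTC ran from 0.18 (without siNTC BSA replicate 1) to 0.25, and members past FDR ran from 60 (without siNTC PA replicate 3) to 73. For siErk3 in BSA, members past FDR were 2 with a minimum of 1 count, 1 with DESeq2, and 0 to 1 without single libraries, the median running from 0.054 to 0.11. For siErk3 in PA, DESeq2 gave 1.

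The replicate numbers were not taken to pair the libraries. Correlations of deviations from group means between same-numbered libraries ran from -0.64 to 0.27. For siMk5 against siNTC in BSA they were all positive (0.05 to 0.27), and each of the 3 libraries matched best with its own number. In every other comparison at most 1 library did, so pairing is not excluded for that 1 comparison. A fit with the number as a block gave 6, 6 and 6 members called and medians of 0.24, 0.24 and 0.24 with PA, and 0 in the other comparisons. With 3 libraries per group, shifts near 0.1 on the log2 scale in single members are near the limit of detection, as the SE of a typical member was 0.05.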
